A study of Sus scrofa with 6 samples.

Results

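MEF2C and RXRG are transcription factors of muscle, and each is described here through 1 probe set, a group of short probes for 1 transcript on an Affymetrix porcine array. These 2 probe sets were all that carried either name among the 550 in the authors' deposited comparison of 2 pig muscles, out of 24123 probe sets in the value table. They were found by gene symbol or title in that table, which had itself been selected on an unadjusted p-value under 0.05 and at least a 1.5-fold difference between the muscles in these same arrays. Names were at hand for the listed probe sets alone, so that any further probe sets of either gene on the array, which might not differ, were not analysed here. The difference between the muscles is therefore what chose the 2, and it is described here without a test.

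The RNA came from 3 Meishan gilts, young females of a Chinese pig breed, which were litter mates slaughtered at 150 days of age. The soleus group holds 3 arrays of the muscle that the titles name soleus, whereas the protocol writes SE and describes an oxidative muscle whose deep portion was taken. The longissimus dorsi group holds 3 arrays of the back muscle at the last rib, described as fast-twitch and glycolytic. No treatment or genotype distinguishes the groups, and all pigs had the same feeding regimen and free access to water. Both muscles came from the same 3 pigs, so the 6 arrays are not independent, and with 3 per muscle all values are of limited precision.

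MEF2C (myocyte enhancer factor 2C) is a DNA-binding protein that switches on muscle structural and metabolic genes together with the MyoD family. Class II histone deacetylases hold it inactive, and calcium signals through calcineurin and calmodulin-dependent kinases release it, which in mice favours slow, oxidative fibres. RXRG (retinoid X receptor gamma) is a nuclear receptor that pairs with thyroid hormone, retinoic acid, liver X and peroxisome proliferator-activated receptors. It is the form of the receptor found mainly in skeletal muscle, heart and brain, and in mouse muscle it raises genes of fatty acid synthesis.

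The 2 factors lay in opposite directions between the muscles. MEF2C had the higher mean in soleus, by 1.58-fold, and RXRG had the lower mean in soleus, by 2.68-fold. In both, the 3 soleus arrays did not overlap the 3 longissimus dorsi arrays, as in 14.2% of all 23935 non-control probe sets, and the way the 2 were chosen makes this close to built in. In whole muscle, a change in the share of cells that make a transcript and a change in the RNA made per cell cannot be told apart.

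Values are on a log2 scale centred, for each probe set, on its median of the 6 arrays, and they show differences between arrays but no absolute level. Where the muscles do not overlap, that median falls midway between the closest arrays, so that the innermost soleus and longissimus dorsi values are mirror images around 0. Whether either transcript is abundant or near background, and which of the 2 is the more abundant, could not be read from these values.

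MEF2C (probe set Ssc.6766.1.A1_at, titled myocyte enhancer factor 2C) had values of 0.26, 0.54 and 0.19 in soleus replicates 1, 2 and 3, against -0.52, -0.29 and -0.19 in longissimus dorsi replicates 1, 2 and 3. Soleus replicate 2 was the highest array and longissimus dorsi replicate 1 the lowest, and the 2 replicates numbered 3 lay closest to each other. The mean was 0.33 ± 0.19 in soleus and -0.33 ± 0.17 in longissimus dorsi (SD, n = 3 arrays each). The difference, soleus minus longissimus dorsi, was 0.66 on the log2 scale, with a standard error (SE, from limma) of 0.17, and the closest arrays of the muscles were 0.37 apart. That gap was about as wide as the spread within each muscle, which was 0.36 from lowest to highest array in soleus and 0.33 in longissimus dorsi.

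RXRG (probe set Ssc.19608.1.S1_at, titled retinoid X receptor gamma) had values of -0.78, -0.42 and -0.46 in soleus replicates 1, 2 and 3, against 0.70, 1.47 and 0.42 in longissimus dorsi replicates 1, 2 and 3. Longissimus dorsi replicate 2 stood highest, and soleus replicate 1 lowest. The mean was -0.55 ± 0.20 in soleus and 0.87 ± 0.54 in longissimus dorsi (SD, n = 3 arrays each), a difference of -1.42 (SE 0.27), with 0.85 between the closest arrays. The spread was uneven, with a range of 0.36 in soleus against 1.05 in longissimus dorsi, and the longissimus dorsi SD was 2.73 times that of soleus. The limma SE pools both muscles and is drawn towards the spread of other probe sets, so it does not show this unevenness. For MEF2C the soleus SD was 1.12 times that of longissimus dorsi.

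**Figure D1:**
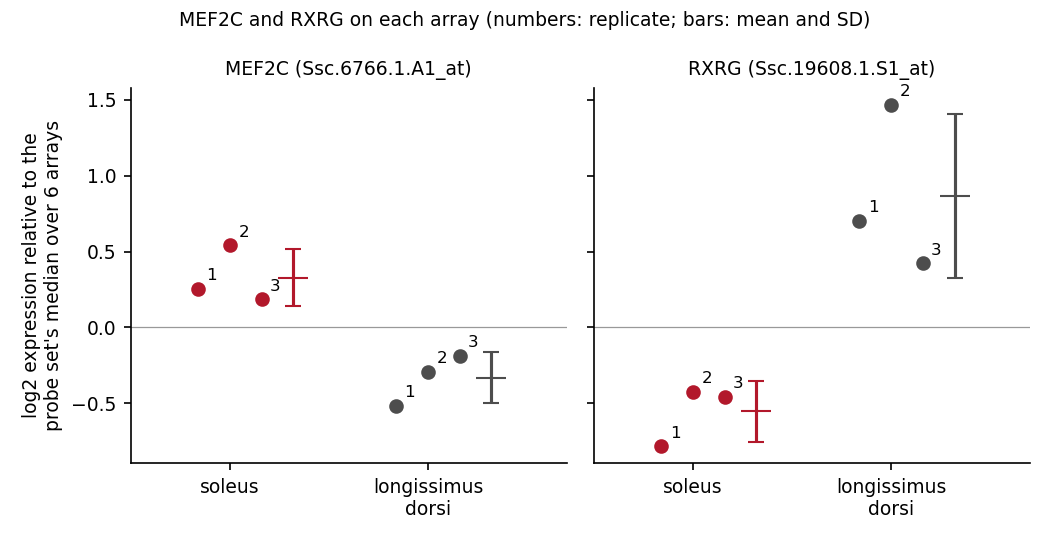
Centred log2 expression of MEF2C (left) and RXRG (right), where 0 is the median of the 6 arrays, with 1 numbered point per replicate and the mean and SD (n = 3) beside them, for soleus (red) and longissimus dorsi (grey). The soleus points lie above 0 for MEF2C and below 0 for RXRG, and longissimus dorsi replicate 2 is the highest RXRG point at 1.47.

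How far RXRG was displaced among the transcripts of the whole chip varied between arrays, and it was chosen for differing between the muscles. On longissimus dorsi replicate 2, 6 of 23935 probe sets had a higher value than RXRG, and on longissimus dorsi replicate 1 there were 169. On longissimus dorsi replicate 3 there were 1871, so that RXRG was less set apart there. On soleus replicate 1, 99.7% of probe sets had a higher value, against 94.7% on soleus replicate 2 and 88.8% on soleus replicate 3. MEF2C was most displaced on soleus replicate 2, where 665 probe sets (2.78%) were higher, against 13.7% on soleus replicate 1 and 26.4% on soleus replicate 3. On longissimus dorsi replicates 1, 2 and 3, 96.1%, 93.4% and 79.3% of probe sets were higher than MEF2C. These ranks depend on how wide each array is. Soleus replicate 3 was the widest, with an SD over probe sets of 0.50, and longissimus dorsi replicate 2 the narrowest, with 0.24, while the other 4 arrays lay between 0.27 and 0.31.

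Among all 23935 non-control probe sets, RXRG had the 68th largest difference in size (0.28% were larger), and MEF2C the 1446th (6.04% were larger). The median difference over all of them was -0.03. In the authors' deposited table RXRG had a fold of 2.68 at an unadjusted p-value of 0.0130, which made it the 16th of the 227 probe sets lower in soleus by fold. MEF2C had a fold of 1.58 at an unadjusted p-value of 0.0107 in the authors' deposited table, the 270th of the 323 higher in soleus. MEF2C thus lay near the fold limit of the table, where 101 of the 550 listed probe sets had a smaller fold. Just inside the limit, the authors' deposited table lists a fold of 1.501, and just outside it, at a p-value under 0.05, the values give 1.499.

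**Figure D2:**
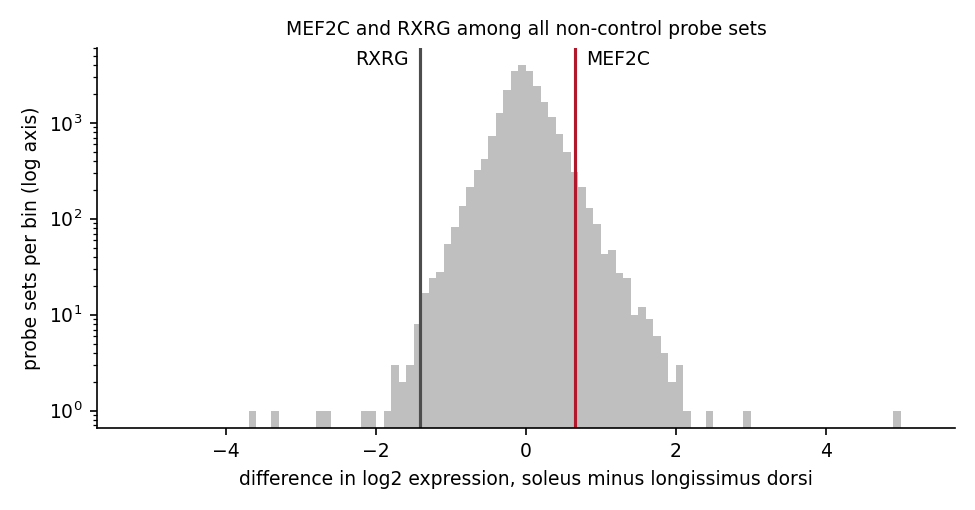
Histogram of the difference in log2 expression, soleus minus longissimus dorsi, for 23935 probe sets, with the number per bin on a log axis and lines at MEF2C (red, 0.66) and RXRG (grey, -1.42). RXRG lies in the left tail, with 0.28% of probe sets further from 0, and MEF2C on the right flank, with 6.04% further from 0.

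Neither factor was among the 2 probe sets of the array (0.00836%) that passed a Benjamini-Hochberg adjusted p under 0.05 in limma, nor did either pass with the authors' unpaired test after the same adjustment. Both were among the 1219 (5.09%) at an unadjusted p under 0.05 and at least 1.5-fold in limma, and among the 549 (2.29%) non-control probe sets of the authors' table. As the factors were taken from a table kept by this same contrast, these counts are given for scale only. MEF2C dropped under the 1.5-fold limit without longissimus dorsi replicate 1 (1.48-fold) and without soleus replicate 2 (1.47-fold), and when the muscles' medians were compared in place of their means (1.46-fold). RXRG stayed beyond that limit with each array left out in turn, at 2.17-fold without longissimus dorsi replicate 2 and 3.12-fold without longissimus dorsi replicate 3.

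**Figure D3:**
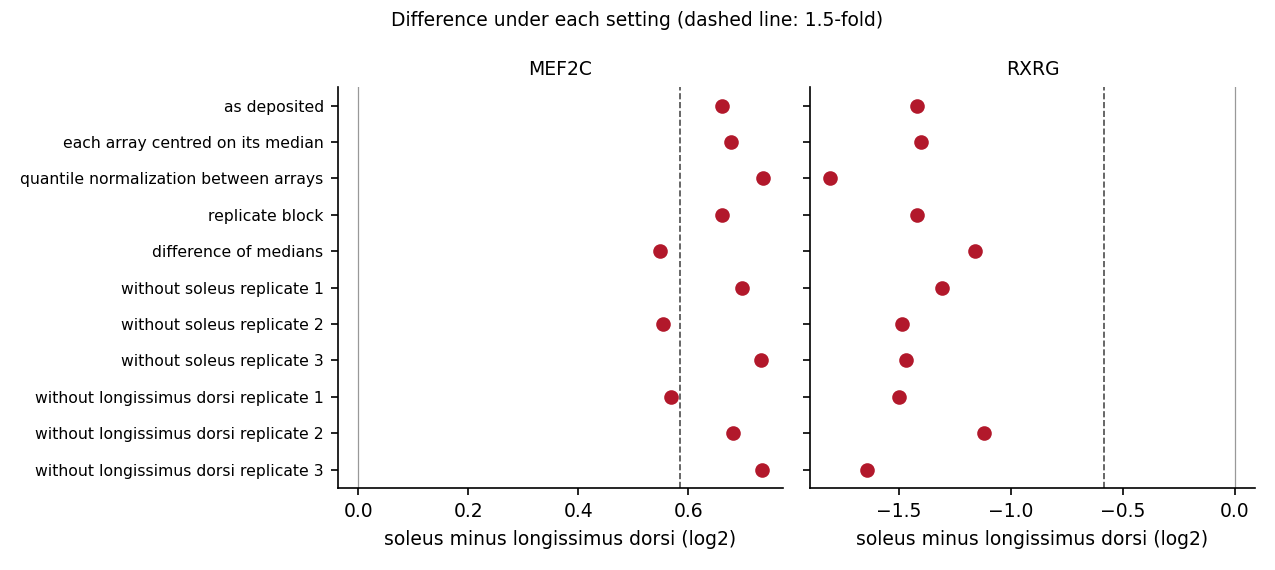
Difference in log2 expression, soleus minus longissimus dorsi, for MEF2C (left) and RXRG (right) under each setting named on the left, with the dashed line at 1.5-fold. MEF2C lies between 0.55 and 0.73 and crosses the dashed line in 3 settings, and RXRG lies between -1.81 and -1.12, beyond the line in all settings shown.

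Of the 36 genes listed for the MEF2 family, its co-regulators and its calcium signalling, MEF2C was the 1 that the authors' table names. The other MEF2 genes, the class II histone deacetylases, calcineurin subunits, NFAT factors, PPARGC1A and the MyoD family were therefore not analysed here, because names were at hand only for the probe sets that the table kept. Of the 30 genes listed for the retinoid X receptor family, its partners and co-regulators, 3 were named, RXRG and NCOR1 with lower means in soleus and CRABP1 with a higher mean. Their differences ran both ways, and each exceeds 1.5-fold because the table kept no smaller ones, so no median over the 3 is set against all probe sets. Of 20 metabolic genes listed as targets of the receptor's pairs, such as LPL, CD36 and PDK4, 0 were named.

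NCOR1, a co-repressor that nuclear receptors recruit in the absence of ligand and that in mouse muscle also restrains MEF2, was read through a probe set whose title names similarity to the human protein. It had -0.22, -0.34 and -0.40 in soleus replicates 1 to 3 and 0.46, 0.23 and 0.22 in longissimus dorsi replicates 1 to 3, a difference of -0.62 (SE 0.15). Its direction was that of RXRG, with a smaller spread in longissimus dorsi (SD 0.14). CRABP1, the cytosolic carrier of retinoic acid, had 1.63, 0.17 and 0.86 in soleus against -0.17, -0.28 and -0.69 in longissimus dorsi, a difference of 1.27 (SE 0.35). CRABP1 thus ran opposite to RXRG, with soleus replicate 1 high and soleus replicate 2 close to longissimus dorsi. Outside the list, and picked after their values were seen, a probe set similar to the nuclear receptor coactivator PNRC1 differed by -0.77 and the sterol hydroxylase CYP27A1 by 0.79. None of these 4 genes passed the adjusted threshold in limma, which only 2 of all 23935 probe sets (0.00836%) passed. All 4 were in the authors' selection, so that the lack of overlap between the muscles is close to built in.

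Genes listed for slow and fast fibres in the same table are given here beside the 2 factors. The fibre types of the muscles were not measured. Of 18 genes listed for slow fibres and the Z-disc, 6 were named, 5 with higher and 1 with lower means in soleus. Their median difference was 0.97. As only genes at 1.5-fold or more were kept, this median is not set against all probe sets. Of 22 fast fibre genes, 2 were named, both with lower means in soleus. The adjusted threshold was passed by 0 genes of either list, and by only 2 of all 23935 probe sets (0.00836%). MEF2C thus had the direction of most of the named slow fibre and Z-disc genes, and RXRG that of the named fast fibre genes. Of all 550 probe sets in the authors' table, 323 were higher and 227 lower in soleus. The 5 named fibroblast and tendon markers also lay on the side of MEF2C, so this direction was not particular to slow fibre genes. These probe sets were all kept for differing between these arrays.

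MYOZ2 (calsarcin 1), which tethers calcineurin at the Z-disc of slow fibres, had 0.62, 0.69 and 0.13 in soleus replicates 1 to 3 and -0.13, -0.71 and -0.31 in longissimus dorsi replicates 1 to 3. Soleus replicate 2 was highest for MYOZ2 as for MEF2C, and the difference was 0.86 (SE 0.22). MYBPC1, the slow myosin-binding protein C, differed by 1.14 and 1.19 on its 2 probe sets, the Z-disc actinin ACTN2 by 1.10, the small heat shock protein HSPB6 by 1.06 and 1.10, and the LIM-domain protein FHL1 by 0.62. A probe set titled as moderately similar to a bovine slow myosin heavy chain went the other way, at -0.98 (SE 0.18), with values of -0.53, -0.27 and -0.62 in soleus against 0.27, 0.63 and 0.62 in longissimus dorsi. The direction of this slow myosin-like probe set was thus opposite to that of MYBPC1 and MYOZ2. Whether it reads slow myosin, and whether soleus is the more oxidative muscle here, was not tested. Of the fast genes, MYH4, the type IIb myosin heavy chain, differed by -0.59 and FBP2, the muscle fructose-1,6-bisphosphatase, by -0.90.

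**Figure D4:**
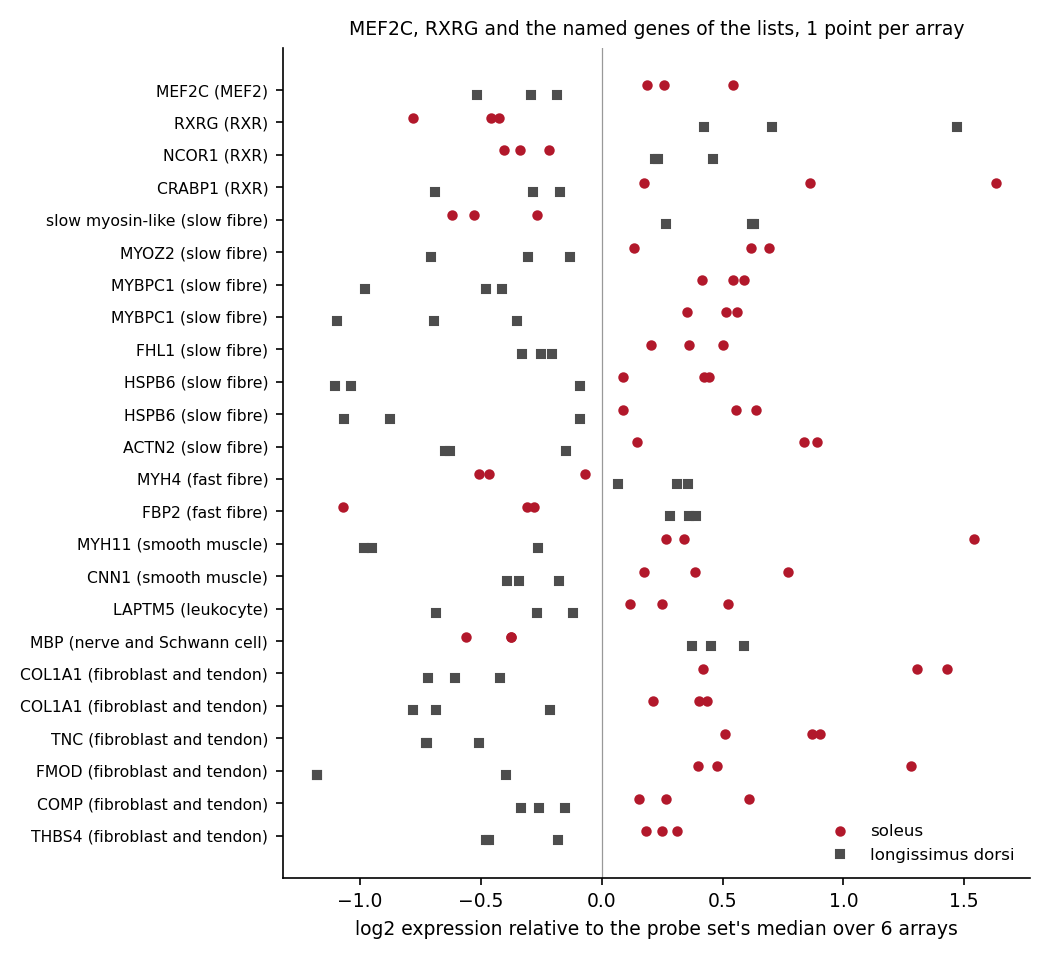
Centred log2 expression of each named probe set, where 0 is the median of 6 arrays, with 1 red circle per soleus array and 1 grey square per longissimus dorsi array, for MEF2C, RXRG and the named genes of the pathway and cell marker lists. MEF2C lies on the same side as 5 of the 6 slow fibre and Z-disc genes, and as the named smooth muscle, leukocyte, and fibroblast and tendon markers. RXRG lies on the side of NCOR1, MYH4, FBP2, MBP and the slow myosin-like probe set.

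Other cells of muscle also make MEF2C, among them endothelium, smooth muscle and some leukocytes, and the named markers of smooth muscle and leukocytes, 3 genes that were all kept for differing, lay in the same direction. Of 5 smooth muscle markers 2 were named, MYH11 and CNN1, and their mean over both lay at 0.26 to 1.16 on the soleus arrays and -0.69 to -0.30 on the longissimus dorsi arrays. Of 5 leukocyte markers LAPTM5 was named, at 0.12 to 0.52 in soleus and -0.69 to -0.12 in longissimus dorsi. Of 7 fibroblast and tendon markers 5 were named (COL1A1, TNC, FMOD, COMP and THBS4), all with higher means in soleus, and their mean lay at 0.51 to 0.64 in soleus and -0.68 to -0.31 in longissimus dorsi. Of 5 nerve markers MBP was named and ran with RXRG, at -0.56 to -0.37 in soleus and 0.37 to 0.59 in longissimus dorsi. None of the 6 endothelial and 4 adipocyte markers was named, and centred values do not show which markers are near background. The part of these cells in the MEF2C and RXRG differences was not tested.

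The genes whose pattern was most like each factor were looked for among the 358 other probe sets of the authors' table with a gene or protein name, by Pearson's r over the 6 arrays. Those without a symbol are called by the gene that their title names. These were all kept for separating the muscles, so that r is large by selection. The median r over all 358 was 0.63 with MEF2C and -0.70 with RXRG, and over those with the same direction it was 0.74 with MEF2C and 0.79 with RXRG. Most like MEF2C were a probe set similar to the amino acid transporter SLC38A1 (r = 0.99), LAPTM5, a lysosomal membrane protein of leukocytes (r = 0.98), a hypothetical protein (r = 0.97), heat shock protein 2 (r = 0.95) and transforming growth factor beta induced (r = 0.95). LAPTM5 had 0.25, 0.52 and 0.12 in soleus replicates 1 to 3 and -0.69, -0.27 and -0.12 in longissimus dorsi replicates 1 to 3, and so ranked the arrays within each muscle as MEF2C did. Most like RXRG were the nucleosome assembly protein NAP1L2 (r = 0.99), the ring finger protein RNF34 (r = 0.99), exophilin 5 (r = 0.98), arginase type II (r = 0.97) and a protein titled 2B28 (r = 0.95). Arginase type II had -0.99, -0.98 and -1.26 in soleus against 1.60, 2.40 and 0.98 in longissimus dorsi, with longissimus dorsi replicate 2 highest as for RXRG.

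With each muscle's mean taken off, so that the difference between muscles no longer enters, the median r over the 358 probe sets was -0.14 with MEF2C and -0.03 with RXRG. Over those with the same direction between the muscles it was -0.40 with MEF2C and -0.08 with RXRG. The 5 most like MEF2C were then the PNRC1-like probe set, LAPTM5, the slow myosin-like probe set, the ADP-ribosyltransferase ART3 and SLC38A1, at r of 0.96 to 0.97. PNRC1, ART3 and the slow myosin-like probe set varied with MEF2C within the muscles but lay on the opposite side between them. The 5 most like RXRG were NAP1L2, RNF34, the coiled-coil protein CCDC3, the death-associated kinase DAPK1 and the pigmentation gene OCA2, at r of 0.91 to 0.96. Of these, CCDC3 (difference 0.83) and DAPK1 (0.64) lay opposite to RXRG between the muscles. The deviations of MEF2C and RXRG had r = 0.07 with each other. All of these r rest on the same 6 arrays of 3 pigs, and they are the highest of many, so they are a description only.

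**Figure D5:**
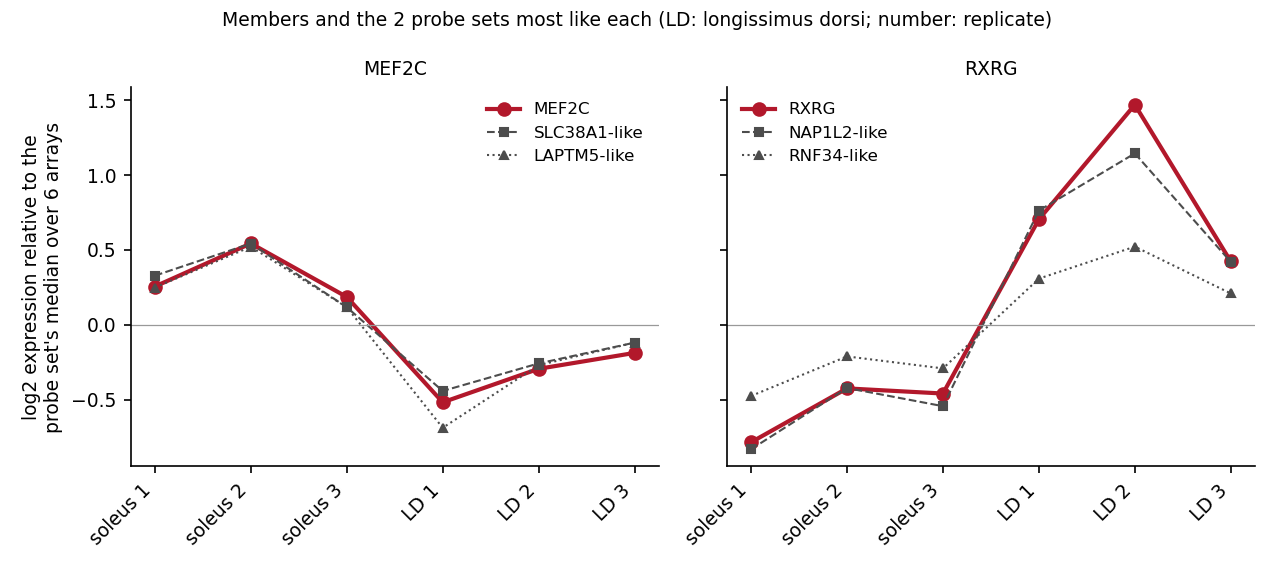
Centred log2 expression on each of 3 soleus and 3 longissimus dorsi (LD) arrays for MEF2C (left) and RXRG (right), each in red with the 2 most similar named probe sets in grey. LAPTM5 and SLC38A1 follow MEF2C closely, and longissimus dorsi replicate 2 is the peak of RXRG and both of its neighbours.

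Both symbols match 1 protein-coding gene each in RefSeq's Sscrofa11.1 gene table, with 49 transcripts for MEF2C and 4 for RXRG. Which of these transcripts each probe set reads was not analysed here, so the values may stand for some transcripts of a gene and not for others.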

How the data were processed

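Total RNA was extracted with TRIzol and RNeasy columns and labelled with biotin for Affymetrix arrays, per the labels' protocols. MAS5 version 2.3.1 appears, with no stated role, in the submitters' processing notes, and the array scaling was not given in the sources used here. As found from the values, the deposited log2 expression is centred on each probe set's median over 6 arrays (all medians were 0 within 5e-07). The authors' comparison table holds, per the file headers, unadjusted p-values of an unpaired test and a linear fold ratio of the larger over the smaller muscle mean.

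After 188 control probe sets were left out, 23935 were fitted with limma 3.58.1 in R 4.3.3 (unpaired, Benjamini-Hochberg adjustment, 0.05), without further normalization. The fit was tested on simulated data. The labels do not say that replicate numbers mark pigs. MEF2C, RXRG and the gene lists were chosen with earlier results of these data known. Listed genes were matched by symbol or, by hand, by title. The text names both factors, every listed gene in the authors' table or its range, and the 5 probe sets most like each factor among those with a symbol or a title other than "Transcribed locus". Alternatives were quantile normalization, centring of arrays, a replicate block, medians, the authors' fold and test, and leaving out each array.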

Additional observations from a re-analysis of the deposited data

How the results depend on the processing

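MEF2C and RXRG kept their direction under quantile normalization, centring of each array, the replicate block, medians, the authors' deposited fold and each left-out array, which is close to built in as they were chosen for it. Over the left-out arrays the difference ran from 0.55 to 0.73 for MEF2C and from -1.64 to -1.12 for RXRG. With quantile normalization it was 0.73 and -1.81, and with the replicate block 0.66 and -1.42, unchanged by construction. The count of 2 probe sets past the adjusted threshold became 7 with the replicate block, 6 with quantile normalization and 1 to 4 over the left-out arrays, and held neither factor in any of these. The count of 1219 was 549 with the authors' unpaired test and 797 to 2501 over the left-out arrays (797 without longissimus dorsi replicate 2, 2501 without soleus replicate 1), and the causes were not tested. Deviations of same-numbered arrays correlated at -0.14, 0.11 and 0.25, so the numbers are not shown to pair the arrays. Listed genes were likewise kept for differing in these arrays, so the sign of a list median says nothing about stability. The medians ran, over the left-out arrays, from -0.67 to -0.55 for the retinoid X receptor list (3 genes), 0.81 to 1.10 for slow fibres (6 genes) and -0.88 to -0.57 for fast fibres (2 genes). The retinoid X receptor list includes RXRG itself and its genes ran both ways. Its median over all arrays was the value of NCOR1 (-0.62), so it does not describe the list as a whole. Signal over background is unknown.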
